A study of Homo sapiens with 12 samples.

Results

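The 10 genes described here are TRAF3 and its listed neighbours in band 14q32 of human chromosome 14. They were taken by name, as genes near TRAF3, and a probe set counted as a member when the platform annotation gave it 1 of these symbols and no other. In chromosome order, from the centromere side to the telomere side, they are DYNC1H1, TECPR2, RCOR1, TRAF3, CDC42BPB, TNFAIP2, EIF5, MARK3, BAG5 and KLC1. They had 32 probe sets of the 41091 with a single symbol, and they are 10 of 19777 genes on the array. A further EIF5 probe set, which also carried the symbol of a small nucleolar RNA, was not used. The question was how far the TRAF3 deletion that the labels give for Maver-1 extends in the expression of the surrounding genes.

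Maver-1 and Z-138 are established human lines of mantle cell lymphoma, a tumour of B cells. Per the labels, the lesion in the NIK pathway is a deletion of TRAF3 in Maver-1 and a nonsense change of TRAF2 in Z-138. Cells of both lines carried a doxycycline-inducible hairpin, either NIKsh#1 or NIKsh#2 directed at MAP3K14, which encodes the kinase NIK, or the non-targeting control NTC, and all were kept under puromycin. Total RNA was taken after 7 days with 100 ng/ml doxycycline or with 0 ng/ml. This gave 12 arrays, 1 for each of the 6 cultures in each condition, so each line had 3 arrays with doxycycline and 3 without. The 3 cultures of a line are 3 constructs in the same line, and nothing in the labels gives repeat cultures of a construct, so a p-value here reflects the spread among those cultures alone, which may be technical. The lines come from different tumours and differ in much besides TRAF3, so the deletion cannot be told apart from other differences between them. DNA copy number was not analysed here, and these files do not give the ends of the deletion.

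TRAF3 is an adaptor protein that, together with TRAF2 and the ubiquitin ligases cIAP1 and cIAP2, marks newly made NIK for destruction. When TRAF3 or TRAF2 is lost, NIK builds up and starts the alternative NF-kB pathway, in which the NFKB2 precursor is processed and pairs with RELB. TRAF3 is lost or mutated in some B cell tumours, and a deletion of a chromosome segment can also take neighbouring genes with it or change their copy number. Its neighbours have other roles. DYNC1H1 is the heavy chain of cytoplasmic dynein, the motor that runs toward microtubule minus ends, and KLC1 is a light chain of kinesin, which runs the opposite way. MARK3 is a kinase that acts on microtubule-associated proteins, and CDC42BPB, or MRCK beta, is a kinase that acts downstream of CDC42 on actomyosin. RCOR1 is the CoREST subunit of a histone demethylase and deacetylase complex. EIF5 stimulates GTP hydrolysis in translation initiation, BAG5 is a co-chaperone of Hsp70, TECPR2 takes part in autophagy and export from the endoplasmic reticulum, and TNFAIP2 was named as a gene induced by tumour necrosis factor.

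The promoters of TRAF3 and of the genes that border it or mark the nearest clear signal on either side are shown as a description only. They are the 250 bases before the annotated start, from RefSeq on GRCh38.p14, written 5′ to 3′ on the strand of the gene, with matches to the NF-kB decamer consensus in capitals. Both strands were searched for that consensus.
RCOR1, chr14:102592399-102592648, plus strand: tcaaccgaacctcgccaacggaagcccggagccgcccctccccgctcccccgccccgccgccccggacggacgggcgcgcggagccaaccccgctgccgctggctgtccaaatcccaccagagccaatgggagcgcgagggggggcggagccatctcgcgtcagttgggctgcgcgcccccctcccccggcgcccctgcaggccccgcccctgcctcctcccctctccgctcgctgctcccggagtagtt
TRAF3, chr14:102777199-102777448, plus strand: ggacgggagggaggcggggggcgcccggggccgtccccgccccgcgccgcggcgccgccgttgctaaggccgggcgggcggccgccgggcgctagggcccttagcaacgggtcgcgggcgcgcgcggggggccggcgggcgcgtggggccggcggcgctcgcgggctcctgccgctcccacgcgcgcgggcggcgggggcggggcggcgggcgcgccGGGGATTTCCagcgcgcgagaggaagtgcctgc
CDC42BPB, chr14:103057550-103057799, minus strand: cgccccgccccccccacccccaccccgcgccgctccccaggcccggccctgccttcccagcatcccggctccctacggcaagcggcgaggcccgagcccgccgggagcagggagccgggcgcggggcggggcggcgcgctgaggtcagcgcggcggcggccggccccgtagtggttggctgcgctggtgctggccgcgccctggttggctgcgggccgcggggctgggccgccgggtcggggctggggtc
EIF5, chr14:103333987-103334236, plus strand: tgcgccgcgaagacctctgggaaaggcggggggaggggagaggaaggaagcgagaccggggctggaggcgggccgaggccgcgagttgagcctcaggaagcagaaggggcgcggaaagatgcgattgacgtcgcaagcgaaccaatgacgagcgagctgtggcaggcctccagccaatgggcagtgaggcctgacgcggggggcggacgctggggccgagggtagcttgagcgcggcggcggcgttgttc
All 10 genes had an entry, 12 promoters in all because EIF5 and BAG5 had alternative starts. The decamer in the TRAF3 promoter began 33 bases before the start. A match was also present in the promoter of TECPR2 and in that of the second BAG5 start, so 3 of 12 promoters held one, against 9.96% of 35114 promoters of the same length. A match of letters is a description and not a binding site, and a window without one says only that these letters are not in it.

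The deposited values were linear signal intensities per probe set, scaled by the authors so that all arrays had the same trimmed mean. Array medians lay between 10.6 and 14.1, and a signal under the median of its array is treated here as a bound and not as a level. Changes are differences of log2(signal + 3), which understate the change of probe sets with low signal. Arrays of the same line correlated at 0.954 to 0.991 (Pearson r of log2 signals over probe sets) and arrays of different lines at no more than 0.879. In both lines all 4 measured B cell markers were above the median on every array, CCND1 and SOX11 likewise, while CD5 was above it in Maver-1 only. Markers of monocytes and stroma had no gene above the median on every array in either line. Of 3 T cell markers CD3G was above it on every Z-138 array, at 56.6 to 177.5 against 0.8 to 7.2 in Maver-1, and CD3D and CD3E were at 8.3 or less on all arrays. In bulk RNA, fewer cells of a type and less RNA per cell cannot be told apart. For ACTB, the signal of its 3′ control probe set over that of its 5′ one, which depends on RNA integrity and amplification, differed with the groups. On arrays with doxycycline this ACTB ratio was 3.8 to 4.43 in Maver-1 and 4.62 to 6.34 in Z-138, and on arrays without doxycycline it was 3.66 to 6.88 in Maver-1 and 2.33 to 2.92 in Z-138. Its part in the line differences below was not tested.

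TRAF3 was near the floor of the array in Maver-1 and well expressed in Z-138. TRAF3 spans chr14:102777449-102911500 on GRCh38.p14 and had 2 probe sets. Without doxycycline, 221571_at read 0.4, 0.8 and 4.3 in the Maver-1 cultures NIKsh#1, NIKsh#2 and NTC, against 265.8, 364.6 and 321.1 in the same cultures of Z-138. The 208315_x_at probe set read 1.6, 5.7 and 0.7 in Maver-1, against 205.8, 263.6 and 190.5 in Z-138. All 6 Maver-1 values were under the array medians and all 6 Z-138 values were far above them. Since the Maver-1 signals only bound the level, TRAF3 was at least 25.4-fold lower in Maver-1 by 221571_at and at least 17.6-fold lower by 208315_x_at. On the log2(signal + 3) scale the change was -6.12 ± 0.27 (SE, 3 cultures per line; limma, adjusted p = 7.205e-10 over 11548 genes).

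The same held on the arrays with doxycycline. There 221571_at read 2.3, 3.0 and 2.5 in Maver-1 (NIKsh#1, NIKsh#2, NTC) and 233.4, 299.8 and 528.0 in Z-138, again at least 25.4-fold lower in Maver-1. The second probe set read 3.5, 2.2 and 3.7 in Maver-1 and 173.3, 140.1 and 194.4 in Z-138, at least 12.8-fold lower in Maver-1. Within its own array, 221571_at stood between the 3.2 and 31.5 percentiles of all probe sets in Maver-1 and between the 81.6 and 88.9 percentiles in Z-138. Where the probes lie within the TRAF3 transcript is not given in the files used here, so the data do not show whether they lie inside the deleted stretch. The suffix of 208315_x_at marks probes that may also match other transcripts, which would add signal and not remove it.

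**Figure D1:**
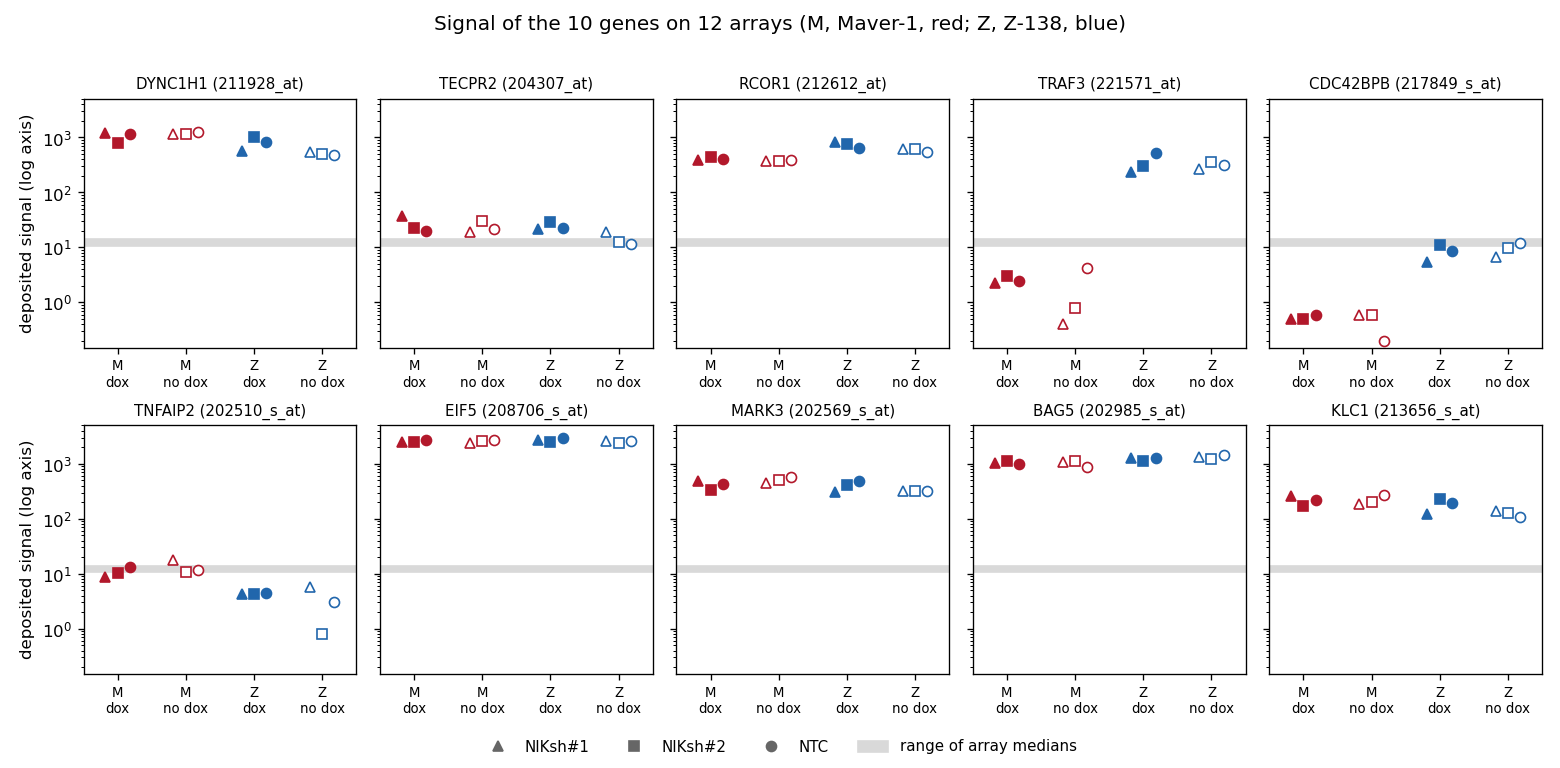
Deposited signal (log axis) of the probe set standing for each of the 10 genes, in chromosome order, with 1 point per array (M, Maver-1; Z, Z-138; dox, 100 ng/ml doxycycline; filled points with and open points without doxycycline) and a grey band for the range of the array medians, 10.6 to 14.1. TRAF3 lies under the band on all 6 Maver-1 arrays and above it on all 6 Z-138 arrays, and the other genes above the band stay above it in Maver-1.

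On the telomere side the 2 members nearest to TRAF3 did not pass the filter on low signal and were not tested in the main fit. CDC42BPB (chr14:102932380-103057549, minus strand) begins 20.9 kb beyond TRAF3 with its 3′ end turned toward it. Its probe set 217849_s_at read 0.6, 0.6 and 0.2 in untreated Maver-1 (NIKsh#1, NIKsh#2, NTC) and 6.8, 9.7 and 11.8 in untreated Z-138. With doxycycline it read 0.5, 0.5 and 0.6 in Maver-1 and 5.5, 10.9 and 8.6 in Z-138. Every Maver-1 value was thus below every Z-138 value, but all 12 were under their array medians. No fold is given for that reason, and the fit without the filter is given with the alternatives below. The second CDC42BPB probe set, 1557963_at, was at 2.5 or less on all arrays.

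TNFAIP2 (chr14:103121469-103137439), 210.0 kb beyond TRAF3, went the other way at similarly low signal. Its probe set 202510_s_at read 17.4, 10.8 and 11.5 in untreated Maver-1 (NIKsh#1, NIKsh#2, NTC), against 5.8, 0.8 and 3.0 in untreated Z-138. With doxycycline it read 8.6, 10.1 and 13.3 in Maver-1, against 4.2, 4.2 and 4.4 in Z-138. The lines did not overlap in either condition, and Maver-1 had 1 array of 3 above its median in each condition while Z-138 had none. No fold is given, since most of these values only bound the level, and the fit without the filter is given with the alternatives below.

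Between RCOR1 and EIF5, the nearest genes with clear signal on either side, lie 603.7 kb in which TRAF3 alone passed the filter on low signal. RefSeq places 22 genes there, 7 of them protein coding, and 5 had a probe set: TRAF3, CDC42BPB, EXOC3L4, TNFAIP2 and LINC00605. The better EXOC3L4 probe set ranged over 2.4 to 13.7 in Maver-1 and 2.3 to 11.7 in Z-138, and that of LINC00605 over 0.2 to 3.0 in Maver-1 and 0.4 to 2.8 in Z-138. These ranges overlap almost fully. Within this interval only TRAF3 was bright enough to be tested between the lines.

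RCOR1, the nearest gene on the centromere side, was expressed in both lines and lower in Maver-1. RCOR1 (chr14:102592649-102730561) ends 46.9 kb before TRAF3. Its probe set 212612_at read 376.8, 371.5 and 394.9 in untreated Maver-1 (NIKsh#1, NIKsh#2, NTC), against 618.1, 614.2 and 536.6 in untreated Z-138. The highest Maver-1 value lay well below the lowest Z-138 value. The fitted Z-138 level was 1.54 times that of Maver-1, a log2 change of -0.62 ± 0.10 (limma, adjusted p = 0.0001209). With doxycycline the signals were 387.5, 433.8 and 408.6 in Maver-1 and 842.7, 766.8 and 633.3 in Z-138, and the change was -0.85 ± 0.15 (limma, adjusted p = 0.002213). RCOR1 and TRAF3 were the 2 members that were lower in Maver-1 past the threshold in both conditions. Averaged with its second probe set, 237041_x_at, which was at 6.3 or less everywhere, the untreated RCOR1 change was -0.19 (limma, adjusted p = 0.2975).

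EIF5, the nearest gene with clear signal on the telomere side, was well expressed in both lines, but its probe sets differed in how the lines compared. EIF5 (chr14:103334237-103345025) starts 422.7 kb beyond the end of TRAF3. Its brightest probe set, 208706_s_at, read 2387.7, 2617.7 and 2715.2 in untreated Maver-1 (NIKsh#1, NIKsh#2, NTC), against 2571.7, 2367.6 and 2610.5 in Z-138, and the ranges overlapped. The change between the lines was 0.03 ± 0.07 (limma, adjusted p = 0.7044), and on the arrays with doxycycline it was -0.07 ± 0.09 (adjusted p = 0.5451). The other EIF5 probe sets did not read alike. Of the 5, 208290_s_at and 208708_x_at were higher in untreated Maver-1, by 0.29 ± 0.07 and 0.36 ± 0.07, and 208705_s_at had a change of 0.00 ± 0.08. By contrast 208707_at read 358.2, 312.6 and 314.0 in Maver-1 and 595.1, 677.0 and 604.3 in Z-138, a change of -0.92 ± 0.11 (limma, adjusted p = 1.589e-05 over 22823 probe sets). This probe set was lower in Maver-1 with doxycycline too, by -0.95 ± 0.15 (adjusted p = 0.001253). Which transcripts of EIF5 each probe set reads is not given in the files used here.

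MARK3 and KLC1 were higher in untreated Maver-1 by every probe set that passed the filter. MARK3 (chr14:103385415-103503831) read 454.2, 501.0 and 566.4 by 202569_s_at in Maver-1 (NIKsh#1, NIKsh#2, NTC), against 321.8, 318.9 and 313.9 in Z-138. KLC1 (chr14:103629211-103701544) read 188.8, 204.8 and 265.2 by 213656_s_at in Maver-1, against 140.6, 127.4 and 109.6 in Z-138. Neither gene had overlapping lines. MARK3 was 1.58-fold higher (log2 change 0.66 ± 0.11; limma, adjusted p = 0.0001509) and KLC1 1.72-fold higher (0.78 ± 0.16; adjusted p = 0.0007524). The 3 MARK3 probe sets gave changes of 0.63 to 0.69 and the 3 of KLC1 0.75 to 0.98, and all 6 passed over probe sets. The remaining KLC1 probe set, 232036_at, was near or under the medians, at 5.8 to 13.8 in Maver-1 and 7.6 to 13.8 in Z-138.

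BAG5, which lies between MARK3 and KLC1, was read in opposite directions by its probe sets. BAG5 (chr14:103556551-103562657, minus strand) is a short gene 645.1 kb beyond TRAF3. By 202985_s_at it read 1056.2, 1110.5 and 887.2 in untreated Maver-1 (NIKsh#1, NIKsh#2, NTC), against 1333.7, 1233.4 and 1429.9 in Z-138, without overlap. This change was -0.39 ± 0.10 (limma, adjusted p = 0.003046), and by 202984_s_at it was -0.86 ± 0.12 (adjusted p = 0.0001039). The third probe set, 230427_s_at, read 143.4, 140.3 and 136.7 in Maver-1 and 112.3, 109.3 and 88.4 in Z-138, a change of 0.44 ± 0.15 (adjusted p = 0.02422) in the other direction. With doxycycline it was higher in Maver-1 too, by 0.69 ± 0.18 (limma, adjusted p = 0.02016), while 202985_s_at then had a change of -0.22 ± 0.11 (adjusted p = 0.1678) and 202984_s_at one of 0.14 ± 0.23 (adjusted p = 0.6798).

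On the centromere side beyond RCOR1, TECPR2 and DYNC1H1 were higher in untreated Maver-1. TECPR2 (chr14:102362941-102502477) was weakly expressed, at 19.1, 30.8 and 21.7 by 204307_at in Maver-1 (NIKsh#1, NIKsh#2, NTC), against 18.9, 12.4 and 11.4 in Z-138. The 2 NIKsh#1 values nearly met. Only 1 of the 3 Z-138 values was at or above its array median, so the Z-138 level is mostly a bound. Its change of 0.64 ± 0.26 passed only narrowly (limma, adjusted p = 0.04637), and it was lost when Maver-1 NIKsh#2, Maver-1 NTC, Z-138 NIKsh#2 or Z-138 NTC was left out (adjusted p of 0.07063 to 0.1822 over these 4 fits). Adjusted over probe sets it did not pass (0.0528), nor did the second probe set, 204308_s_at, with a change of 0.40 ± 0.24 (adjusted p = 0.1741).

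DYNC1H1 (chr14:101964573-102056443), 721.0 kb before TRAF3, was higher in untreated Maver-1 by its brightest probe set alone. That probe set, 211928_at, read 1142.2, 1164.8 and 1269.9 in untreated Maver-1 (NIKsh#1, NIKsh#2, NTC), against 554.7, 494.2 and 486.5 in Z-138. Every Maver-1 value lay above every Z-138 value, and DYNC1H1 was 2.32-fold higher in Maver-1 (log2 change 1.22 ± 0.09; limma, adjusted p = 9.416e-08). The other 3 DYNC1H1 probe sets that passed the filter did not show it. They had changes of 0.12 ± 0.24 (229115_at), -0.65 ± 0.35 (229042_s_at) and -0.55 ± 0.25 (241084_x_at), with adjusted p of 0.6793, 0.1337 and 0.0771. Averaged over its 7 probe sets, the DYNC1H1 change was 0.14 ± 0.17 (limma, adjusted p = 0.4959).

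Of the 8 members that passed the filter, 4 were higher in untreated Maver-1 (DYNC1H1, TECPR2, MARK3 and KLC1), 3 were lower (RCOR1, TRAF3 and BAG5) and EIF5 did not pass. Over all 11548 genes tested, 34.8% were higher and 25.5% lower in Maver-1, so that most genes differ between these lines. Apart from TRAF3, 4 of 7 members were higher (57.1%) and 2 lower (28.6%). In 7 of 8 members the 3 arrays of one line did not overlap those of the other, against 65.8% of all genes. Their median change was 0.34, and without TRAF3 0.64, against 0.08 for all genes. Over the 23 probe sets that passed, 10 were higher, 6 lower and 7 did not pass, against 28.6% higher and 26.3% lower of 22823 probe sets. Signal in the 8 members could pass the filter through either line alone, and TRAF3 passed through Z-138, so these counts describe genes bright enough to test and support nothing further.

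**Figure D2:**
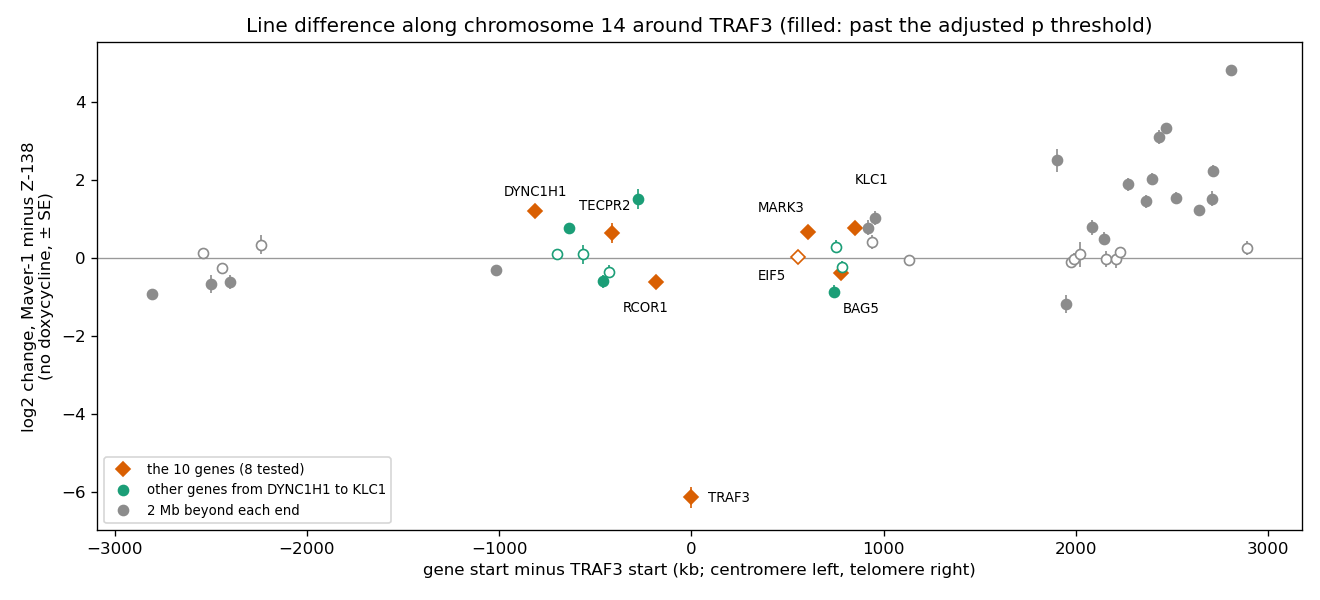
Log2 change (Maver-1 minus Z-138, no doxycycline, ± SE of the limma fit, 3 cultures per line) against the distance of the gene start from that of TRAF3 in kb, for the 8 tested members (diamonds), the 9 other tested genes of the span and the genes within 2 Mb of its ends, with filled symbols past the adjusted p threshold. TRAF3 stands alone at -6.12, and the other genes from DYNC1H1 to KLC1 lie between -0.85 and 1.51.

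No other tested gene of the span had a change near that of TRAF3. The span from the start of DYNC1H1 to the end of KLC1 is 1737.0 kb long and holds 62 RefSeq genes, 23 of them protein coding, of which 21 had a probe set and 17 were tested. Of the 9 tested genes of the span that are not members, ANKRD9 and WDR20 were higher in untreated Maver-1, and CKB and ZNF839 were lower. ANKRD9, 275.7 kb before the start of TRAF3, read 39.6, 37.0 and 53.9 in Maver-1 (NIKsh#1, NIKsh#2, NTC), against 14.3, 17.9 and 8.5 in Z-138, a change of 1.51 ± 0.26 (limma, adjusted p = 0.0002174). CKB, the brain-type creatine kinase, read 30.4, 30.8 and 30.0 in Maver-1 and 56.6, 62.5 and 53.5 in Z-138, a change of -0.85 ± 0.18 (adjusted p = 0.0009388). WDR20 changed by 0.77 ± 0.14 (adjusted p = 0.0002784) and ZNF839 by -0.60 ± 0.17 (adjusted p = 0.007677). The other 5, HSP90AA1, MOK, CINP, TRMT61A and COA8, had changes of -0.35 to 0.29 and did not pass.

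Beyond the span the 2 sides differed in their counts. In the 2 Mb on the centromere side 4 of 7 tested genes were lower in untreated Maver-1 and 0 higher, with a median change of -0.30. The nearest 3 there were PPP2R5C, a regulatory subunit of protein phosphatase 2A, with -0.30 ± 0.06 (limma, adjusted p = 0.001145), BEGAIN with 0.35 ± 0.25 (adjusted p = 0.2446) and WDR25 with -0.61 ± 0.17 (adjusted p = 0.006979). PPP2R5C starts 1016.9 kb before TRAF3, so DYNC1H1, higher in untreated Maver-1 by its brightest probe set alone, lies between it and TRAF3. In the 2 Mb on the telomere side 15 of 25 tested genes were higher and 1 lower, with a median change of 0.79. The nearest 3 there were XRCC3 with 0.78 ± 0.19 (adjusted p = 0.002954), ZFYVE21 with 0.41 ± 0.18 (adjusted p = 0.06209) and PPP1R13B with 1.03 ± 0.17 (adjusted p = 0.0001738). In the rest of chromosome 14, 28.0% of 336 tested genes were lower and 29.5% higher. These are counts along 1 chromosome in 2 lines, and no test of position was made.

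On the arrays with doxycycline fewer members passed between the lines, as did fewer of all genes. Of the 8 tested members, 0 were higher and 2, TRAF3 and RCOR1, were lower in Maver-1, against 19.1% higher and 17.3% lower over all genes. Whether the line differences themselves changed with doxycycline was tested only for the NIKsh cultures, as given below, and the RCOR1 change was -0.85 on these arrays, against -0.62 without doxycycline. The 2 lines failed to overlap in 3 members, against 49.8% of all genes. Over the 23 probe sets 1 was higher and 4 lower, against 16.1% and 14.3% over all probe sets. DYNC1H1 read 1221.1, 799.1 and 1154.2 in Maver-1 (NIKsh#1, NIKsh#2, NTC), against 578.9, 1027.7 and 844.1 in Z-138, and its change was 0.39 ± 0.23 (limma, adjusted p = 0.2168). MARK3 read 483.7, 337.5 and 430.1 in Maver-1, against 306.3, 409.1 and 477.0 in Z-138, with a change of 0.08 ± 0.21 (adjusted p = 0.8023). For both genes the lines now overlapped. KLC1 had a change of 0.27 ± 0.27 (adjusted p = 0.4774), and its probe sets 212878_s_at and 212877_at had values of -0.20 and -0.11. On these arrays the ACTB ratio of Z-138 was 4.62 to 6.34, against 2.33 to 2.92 without doxycycline, as given above.

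**Figure D3:**
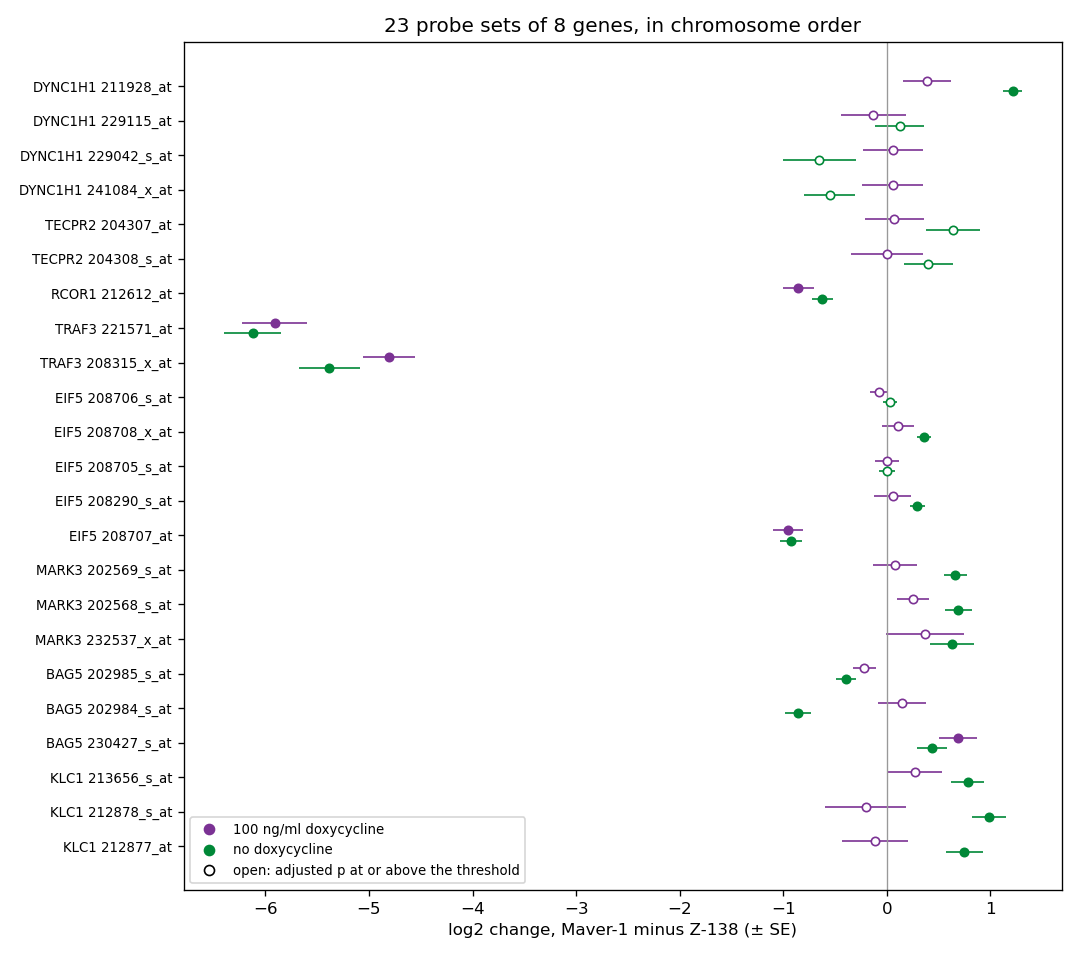
Log2 change (Maver-1 minus Z-138, ± SE, 3 cultures per line) of the 23 member probe sets that passed the filter, in chromosome order, on the arrays with 100 ng/ml doxycycline (purple) and without (green), with filled points past the adjusted p threshold. Both TRAF3 probe sets lie between -6.12 and -4.81, while those of EIF5, BAG5 and DYNC1H1 fall on both sides of 0 without doxycycline.

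No member changed past the threshold with doxycycline, which in the NIKsh cultures is also the inducer of the hairpin against MAP3K14. With this number of arrays changes of moderate size can be missed, so a lack of calls does not show a lack of response. In the 4 NIKsh cultures 0 of 8 members passed, against 0.0433% of all genes (5 of 11548). MAP3K14, the target of both hairpins, had a change of -0.42 ± 0.18 there (limma, adjusted p = 0.5295). The members had changes of -0.06 to 0.43, with RCOR1 at 0.26 ± 0.11 (adjusted p = 0.5295) and TECPR2 at 0.43 ± 0.28 (adjusted p = 0.7309). In the 2 NTC cultures 0 of 8 passed, against 0% of all genes, and 0 of 8 passed in the difference between NIKsh and NTC, again against 0% of all genes. For these 3 comparisons limma gave 1, 0 and 0 members at an unadjusted p under 0.05, the 1 being RCOR1, and 1037, 387 and 627 of all genes.

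By line, the NIKsh cultures of Maver-1 had 0 of 8 members past the threshold (0% of all genes, 459 at an unadjusted p under 0.05) and those of Z-138 had 0 of 8 (2.14% of all genes). At an unadjusted p under 0.05 limma gave 1 member in Maver-1, TRAF3, and 2 in Z-138, DYNC1H1 and RCOR1. Over all 11548 genes it gave 459 in Maver-1 and 1868 in Z-138. DYNC1H1 changed by -0.22 ± 0.23 in Maver-1 and by 0.56 ± 0.23 in Z-138 (adjusted p of 0.9981 and 0.2722). The difference between the lines was -0.78 ± 0.32 (adjusted p = 0.5484), and 0 of 8 members passed in that difference, against 0.121% of all genes. For that difference limma put DYNC1H1 and TRAF3 at an unadjusted p under 0.05, among 992 of all genes. The TRAF3 change of 0.65 ± 0.25 in Maver-1 concerns signals of 0.4 to 3.0, all under the array medians, and is not a measured level.

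The doxycycline changes of several neighbours differed between the cultures of a line. Unless another is named, each value is of the probe set standing for the gene. In Z-138 the log2 changes of DYNC1H1 were 0.06, 1.05 and 0.79 in NIKsh#1, NIKsh#2 and NTC, those of TECPR2 were 0.17, 1.08 and 0.82, and those of KLC1 were -0.22, 0.85 and 0.79. By these probe sets NIKsh#2 and NTC were high in all 3 genes and NIKsh#1 was not. In the same order TECPR2 204308_s_at (-0.57, 0.77 and 0.53) and KLC1 212878_s_at (-0.16, 0.70 and 1.57) read likewise. DYNC1H1 229115_at (1.035, -0.14 and -0.72) and 229042_s_at (0.66, -0.60 and -1.50) went the other way. KLC1 212877_at (0.30, 0.07 and 1.54) and DYNC1H1 241084_x_at (-0.42, 0.37 and -0.34) showed neither pattern. The ACTB ratios of those Z-138 cultures were 4.62, 5.09 and 6.34 with doxycycline and 2.86, 2.92 and 2.33 without. Whether these ratios bear on the changes was not tested. In Maver-1 the changes of DYNC1H1 were 0.10, -0.54 and -0.14 in the same order, and those of KLC1 were 0.42, -0.27 and -0.28. By the probe set standing for it, EIF5 stayed within -0.06 and 0.15 in all 6 cultures. Its other probe sets did not all do so. In Z-138 NTC, EIF5 208708_x_at and 208290_s_at changed by 0.60 and 0.65, and 208705_s_at and 208707_at by -0.02 and 0.02.

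**Figure D4:**
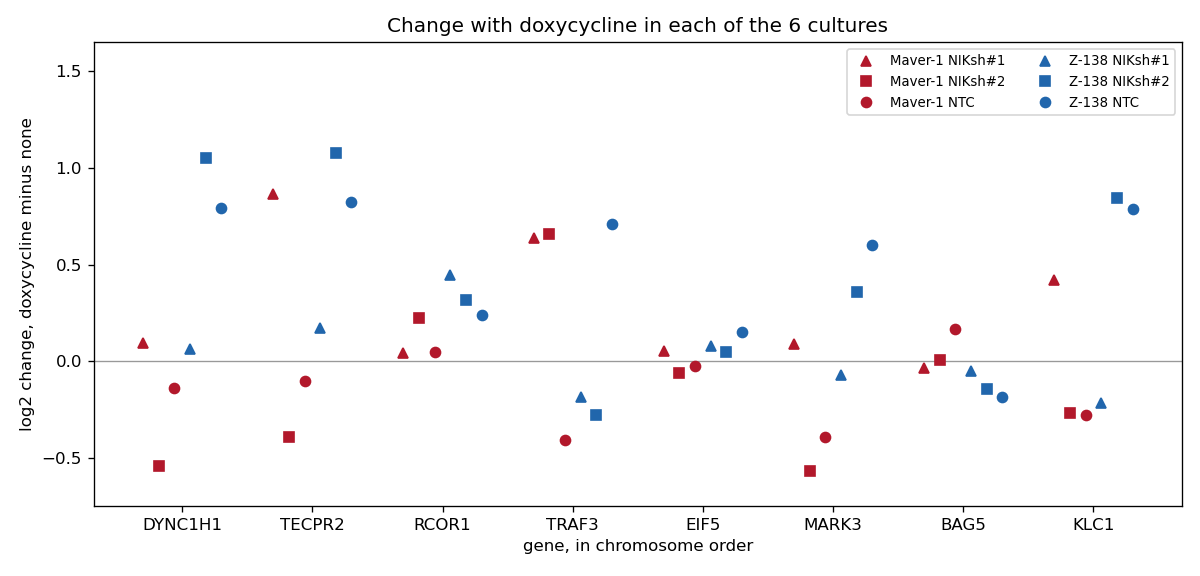
Log2 change with doxycycline (100 minus 0 ng/ml) of the probe set standing for each of the 8 tested members in each of the 6 cultures (red, Maver-1; blue, Z-138; triangles NIKsh#1, squares NIKsh#2, circles NTC). In Z-138, DYNC1H1, TECPR2 and KLC1 lie at 0.79 to 1.08 in NIKsh#2 and NTC and lower in NIKsh#1, and EIF5 lies within -0.06 and 0.15.

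In a list of genes tied to TRAF3 or to the alternative NF-kB pathway, 7 were higher and 2 lower in untreated Maver-1. The list had 18 genes, of which 16 had a probe set with a single symbol and 14 were tested, with a median change of 0.36. TRAF1, BIRC3, LTBR and TRAF2, the gene of the Z-138 lesion, were not among those tested. The 7 were TRAF5 and TRAF6, adaptors of the same family, BIRC2, the gene of cIAP1, MAP3K14, CHUK, the kinase that NIK activates, NFKB2, and CD40, a receptor that recruits TRAF3. TRAF5 read 376.9, 372.3 and 382.6 in Maver-1 (NIKsh#1, NIKsh#2, NTC), against 38.2, 31.5 and 27.3 in Z-138, a change of 3.44 ± 0.15 (limma, adjusted p = 6.402e-10). MAP3K14 read 86.9, 79.3 and 77.2 in Maver-1, against 55.2, 52.0 and 46.4 in Z-138, a change of 0.64 ± 0.16 (adjusted p = 0.004009). NFKB2 changed by 0.61 ± 0.14 (adjusted p = 0.002103) and CD40 by 1.13 ± 0.15 (adjusted p = 2.635e-05). The 2 lower genes were TRAF3IP2, an adaptor of interleukin-17 signalling that binds TRAF3, at -2.09 ± 0.17 (adjusted p = 2.843e-07), and OTUD7B, a deubiquitinase of TRAF3, at -1.73 ± 0.16 (adjusted p = 1.104e-06). RELB had a change of -0.42 ± 0.18 and did not pass (adjusted p = 0.05656). With 34.8% of all genes higher and 25.5% lower, these counts are a description of the list. On the arrays with doxycycline 3 of the 14 were higher in Maver-1 and 2 lower, against 19.1% and 17.3% of all genes. TRAF5 (3.79, adjusted p = 2.385e-05), CD40 (2.35, adjusted p = 0.002003), TRAF3IP2 (-1.93, adjusted p = 0.0008216) and OTUD7B (-1.34, adjusted p = 0.01142) passed there again by limma, TANK passed there alone (0.54, adjusted p = 0.03869), and BIRC2, CHUK, MAP3K14, NFKB2 and TRAF6 did not, with changes of 0.38 to 0.75 and adjusted p of 0.06159 to 0.5468. None of the 14 passed for doxycycline in the NIKsh cultures, where 0.0433% of all genes did. The fitted changes there were below 0 for 10 of the 14, and the median change over all genes was 0.007. No test of the list was made.

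The genes whose pattern over the 12 arrays was most like that of TRAF3 were GPHN, PDPN, AMOTL1, NUDT11 and PAX8-AS1. Likeness was the root mean square distance between log2 profiles, each centred on its own mean, and it was 0.406 to 0.474 for these 5 of 11548 genes. GPHN, the scaffold protein gephyrin, also lies on chromosome 14, at chr14:66508147-67735355, far on the centromere side of TRAF3. GPHN was at 0.7 to 3.6 on the 6 Maver-1 arrays, against 249.0 to 327.5 on the 6 Z-138 arrays, a change of -5.70 ± 0.23 without doxycycline. Since likeness was taken over these same 12 arrays, such a line difference follows from the choice, and no test of it is given. PDPN, AMOTL1, NUDT11 and PAX8-AS1 lie on chromosomes 1, 11, X and 2 and were at no more than 7.4 on any Maver-1 array, against at least 231.9 on every Z-138 array.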

How the data were processed

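Total RNA of 6 cultures was extracted and, per the labels' protocols, amplified, labelled with biotin and hybridised to 12 one-colour arrays. Each deposited value is the intensity of a probe set on a linear scale. MAS5 is named in the submitters' processing notes, and its version is not given in the sources used here. The mean after trimming 2% of probe sets from each end was 150.02 on every array, which shows scaling by the authors. Array medians differed by 1.33 times, under the limit of 1.5, and nothing was rescaled.

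Of 54675 probe sets, 41097 had 1 symbol in the platform annotation, 1801 had several and 11777 none, and 62 control probe sets were left out. Positions follow RefSeq on GRCh38.p14. Signals were taken to log2(signal + 3). The brightest probe set stood for its gene, and genes with a mean signal under 12.55 were left out, which kept 11548 of 19777 genes. Detection calls were not used here, and the number of arrays limits the precision.

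Lines were compared with limma 3.58.1 in R 4.3.3 (two-sided, intensity trend, Benjamini-Hochberg adjustment over all genes or all probe sets, threshold 0.05), separately on the 6 arrays without and the 6 with doxycycline. Doxycycline changes were fitted on 12 arrays with culture as a fixed block, because per the labels each culture was grown in both conditions. The deviations of the 2 arrays of a hairpin from their group means correlated at 0.202 in Maver-1 and -0.038 in Z-138. The script was tested on simulated data. Other tables used pandas 2.3.3 under Python 3.11.15, and plots used matplotlib 3.10.9.

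All members were named, with the tested genes of their span, the 3 nearest on each side and some other genes within 2 Mb that passed. Also named were the genes of the TRAF3 and NF-kB list that passed, some others of that list, and the 5 genes most like TRAF3 in profile. The members and lists were chosen with earlier results of these data known. Alternatives were the pseudocount, normalization, filter, variance trend, probe set rule, block, arrays used and each culture left out.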

Additional observations from a re-analysis of the deposited data

Results flagged for a closer look

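Among the 10 genes, 24 sets of values were examined for an array that stood apart from the rest, and chance alone flags about 1 in 20 of such sets. A single value did so. DYNC1H1 on the array of Maver-1 NIKsh#2 with doxycycline had a log2 signal of 9.65 (signal 799.1), against 10.16 to 10.31 on the other 5 Maver-1 arrays. MARK3 and KLC1 on that array, at 337.5 and 169.7, were also the lowest of their 6 Maver-1 values.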

How the results depend on the processing

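TRAF3 was lower in Maver-1 past the threshold under all 15 alternatives run for it, with log2 changes of -6.46 to -4.22, the smallest with a pseudocount of 16. RCOR1, BAG5, MARK3, KLC1 and DYNC1H1 kept their direction under the same alternatives. RCOR1 lost its call only as the mean of its probe sets (-0.19), an average with a probe set under the floor, DYNC1H1 there (0.14) and on doxycycline arrays, and BAG5, MARK3 and KLC1 on doxycycline arrays. TECPR2 lost its call under 9 of 14. With no filter, CDC42BPB was lower in untreated Maver-1 (-1.82) and TNFAIP2 higher (1.45), both past the threshold (limma, adjusted p of 0.0001136 and 0.00416). Most of the signals behind these 2 calls were under the array medians, so the changes are not measured levels. On the doxycycline arrays BAG5 202984_s_at had 0.14, KLC1 212877_at -0.11 and KLC1 212878_s_at -0.20, each opposite in sign to the untreated call, and the cause was not tested. There 2200 genes were higher in Maver-1 (4017 untreated), and 3676 probe sets were higher and 3270 lower (6532 and 6011 untreated). A filter at the 75th percentile, which tests fewer probe sets, gave 3878 and 3514. Construct numbers do not pair the lines (correlations of -0.14 to -0.07 between same-construct deviations), and with construct as a replicate block TECPR2 had an adjusted p of 0.05826 and the other member genes kept their calls.

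For doxycycline in NIKsh cultures 5 genes were lower and 0 higher, none of them a member. With no filter, with the mean of probe sets and with no intensity trend it was 3 lower. With no replicate block it was 15 lower and 1 higher. With a culture left out it was 0 to 5 lower and 0 higher, reaching 0 without Maver-1 NIKsh#1 or Z-138 NIKsh#1. No member passed under any of these 12 alternatives, with adjusted p of 0.4369 or more.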

Other observations

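Near the telomere end of chromosome 14, a run of neighbouring genes was higher in Maver-1, a pattern picked out after its values were seen. From JAG2 to TEDC1 (chr14:105140995-105499248 on GRCh38.p14), 8 of 8 tested genes were higher in untreated Maver-1, against 34.8% of all genes. Their log2 changes were 1.24 to 3.32 with a median of 1.79. All 8 passed on the doxycycline arrays too (limma), where 19.1% of all genes were higher. The 8 were JAG2, a Notch ligand, NUDT14, BRF1, a subunit of the RNA polymerase III initiation factor, BTBD6, PACS2, MTA1, a subunit of the NuRD complex, CRIP1 and TEDC1. BTBD6 had the highest change, 3.32 ± 0.14, and BRF1 had 3.10 ± 0.18 (limma, adjusted p of 3.401e-10 and 9.783e-09). Between KLC1 and JAG2, 6 of 15 tested genes were higher and 1 was lower, with a median change of 0.17. GPR132, the last of the 15 before JAG2, was among the 6, at 1.89 ± 0.17, so where the run begins was also a choice. The IGH probe set, the next tested feature beyond TEDC1 and the immunoglobulin heavy chain locus, had a change of 4.83 ± 0.13 (limma, adjusted p = 1.115e-11). ELK2AP, which lies within the IGH interval, had 0.26 ± 0.18 and did not pass (limma, adjusted p = 0.2269).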
